A study of Rattus norvegicus with 19 samples.

Results

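The genes described here are the chaperones of the cytosol and the mitochondria, with their co-chaperones and regulators, in adult rat liver. They comprise 52 genes: HSP70 and HSP110 proteins, small heat shock proteins, HSP90 and its co-chaperones, J-domain proteins, BAG proteins, the subunits of the CCT ring, the mitochondrial chaperones, and 3 regulators. A gene was counted as measured when at least 1 probe set was annotated to it and to no other gene, and 49 of the 52 genes met this rule, out of 13810 genes with a probe set of their own. The constitutive HSP70 gene Hspa8, the inducible HSP90 gene Hsp90aa1 and the HSP70 gene Hspa1b had no probe set annotated to them alone and are not analysed here. Rats had been fasted overnight and injected once into the peritoneum, either with pregnenolone-16α-carbonitrile (PCN, 100 mg/kg) or with corn oil alone. PCN is a steroid that switches on the pregnane X receptor of rodents. The liver was collected 8 h after the injection. Both groups shared the fast, the injection and the time point, and strain, sex and exact age are not given in the sources used here. The first Affymetrix array type held 5 PCN and 5 corn oil arrays and measured 45 of the genes, and the second held 5 PCN and 4 corn oil arrays (replicates 1, 3, 4 and 5) and measured 13, with 9 genes on both. The labels call the replicates biological, and by their replicate numbers the 9 animals on the second array type were also on the first. The study set out to learn whether PCN switches on genes outside drug metabolism that bear on stress.

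Chaperones bind proteins that are unfolded, newly made or damaged, and keep them from aggregating until they fold or are destroyed. HSP70 works in cycles driven by ATP, in which J-domain proteins deliver the client and BAG and HSP110 proteins release the nucleotide. HSP90 acts later on kinases and steroid receptors, small heat shock proteins hold unfolded clients without ATP, and the CCT ring folds actin and tubulin inside a closed chamber. Mitochondria have their own set, with Hspa9, the Hspd1 and Hspe1 chamber and the HSP90 relative Trap1. Heat shock factor 1 raises many of the cytosolic genes when unfolded protein accumulates. In liver, HSP90 complexes also hold nuclear receptors in the cytosol.

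Values are log2 expression per probe set as deposited, and each gene is represented by its brightest probe set. A gene was called when the adjusted p of limma, with Benjamini-Hochberg adjustment over all probe sets tested on that array type, was below 0.05. Hepatocyte markers, such as albumin, had a summed log2 level on the first array type of 16.86 to 17.05 in corn oil and 16.88 to 17.09 after PCN, with 8 of 8 markers measured and 0 called (limma; 1 had an unadjusted p below 0.05). The second array type measured 1 of them, Hnf4a, at 11.74 to 12.15 in corn oil and 12.15 to 12.45 after PCN, groups that met at a single value (log2 fold change 0.32, limma adjusted p = 0.116). No marker of another liver cell type was called on either array type. On the first array type the summed levels overlapped for all 7 other marker lists. They ran from 14.07 to 14.43 in corn oil and from 13.59 to 14.26 after PCN for 2 red cell genes, and from 7.31 to 7.74 and from 7.59 to 8.62 for 2 neutrophil genes. For stellate cells they ran from 11.88 to 12.34 in corn oil and from 12.29 to 12.60 after PCN (8 of 8 markers measured). On the second, the summed level of 2 lymphocyte genes was lower in every PCN array than in every corn oil array (7.79 to 7.95 against 8.00 to 8.10). Taken alone, 1 of these 2 genes was apart in this way. The part of these cell types in the chaperone differences was not tested. In bulk liver a change in the share of a cell type and a change in RNA per cell cannot be told apart. As a check of exposure, 6 of the 8 pregnane X receptor targets tested on the first array type rose and 0 fell, among them Alas1, the first enzyme of heme synthesis (log2 fold change 1.74, adjusted p = 0.000119). Corn oil replicate 2 stood apart on the first array type, with an array weight of 0.287 and a residual SD of 0.354 against 0.163 to 0.257 for the other arrays, and it has no array on the second.

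After PCN, 10 of the 43 members tested on the first array type rose (23.3%), against 2.30% of the 8073 genes tested there. By limma 0 members fell, against 0.979% of all genes. An unadjusted p below 0.05 was found for 24 members, 0 of them lower, and for 17.8% of all genes in either direction. The log2 fold change was above 0 for 39 of 43 members (90.7%), against 49.6% of all genes tested, and its median was 0.28, with a range from -0.14 to 1.81, against a median of -0.0019 over all genes. In 13 members every PCN array lay above every corn oil array, as in 3.98% of all genes tested, and in 0 every PCN array lay below, as in 2.13% of all genes. The genes called were Hspa1a, Hspb8, Stip1, Ptges3, Chordc1, Dnaja2, Dnajb1, Bag3, Tcp1 and Zfand2a. Leaving out a single array gave between 5 calls (without corn oil replicate 4) and 13 calls (without corn oil replicate 1), with 6 when PCN replicate 1 was dropped and 8 when corn oil replicate 2 was. Arrays of the first type weighted by their quality gave 22 calls, and an unmoderated test gave 5. Hspb8, Dnajb1 and Bag3 were called under every setting tried, and Hspa1a and Tcp1 in each of the 10 fits that left out 1 array. All 43 tested members had a corn oil mean above the brightness limit of 6.67, whereas Hspa1l (5.18 to 5.36 in corn oil, 5.12 to 5.23 after PCN) and Hspa2 (4.86 to 5.03 and 4.89 to 5.14) were too dim to be tested.

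**Figure D1:**
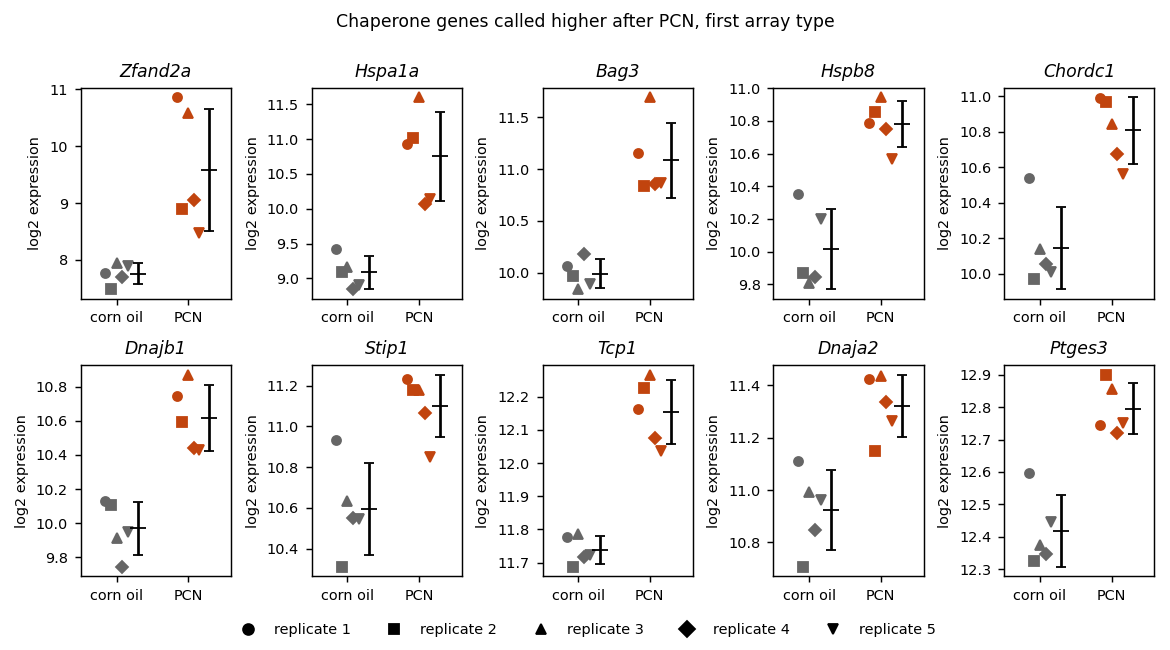
Log2 expression of the 10 chaperone genes called higher after PCN on the first array type, with corn oil at the left and PCN at the right of each panel; each marker is 1 array, its shape is the replicate number, and the bar is the mean ± SD (n = 5). In 9 of the 10 panels all PCN arrays lie above all corn oil arrays, the exception being Stip1, where PCN replicate 5 (10.85) lies below corn oil replicate 1 (10.94).

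A set of member promoters is shown because heat shock factor binds repeats of a 5-base unit, and these repeats can be read directly in the letters. The windows are the 250 bases before the annotated start of each gene, 5′ to 3′ on the strand of the gene, from RefSeq with the rat build GRCr8. Capitals mark matches to GAANNTTC or TTCNNGAA (2 inverted units, GAA and TTC, with any 2 bases between; each is its own reverse complement, so that both strands are read at once). Where a further inverted unit follows after any 2 bases, the match has 3 units and contains the shorter forms. Hsph1 and Hspe1, neither of them called on the first array type, carry 3-unit matches, and Bag3, Hspb8, Dnajb1, Stip1 and Zfand2a were called there and carry a 2-unit match. Hspa1a, Ptges3, Chordc1 and Tcp1 were called and have no match in the window, and that of Hspa1a is shown beside the others. The window of its neighbour Hspa1l lies at chr20:3860224-3860473 on the - strand. The Hspa1a window therefore lies downstream of the Hspa1l start and not between the annotated starts of both genes. Bases outside the windows were not searched, so a missing match holds for the window alone.
Hsph1: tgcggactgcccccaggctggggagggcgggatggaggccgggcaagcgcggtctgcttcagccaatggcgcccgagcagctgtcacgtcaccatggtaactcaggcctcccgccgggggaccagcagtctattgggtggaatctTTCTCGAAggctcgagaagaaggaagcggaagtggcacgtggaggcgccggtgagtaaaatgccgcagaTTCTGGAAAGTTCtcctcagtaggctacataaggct
Hspe1: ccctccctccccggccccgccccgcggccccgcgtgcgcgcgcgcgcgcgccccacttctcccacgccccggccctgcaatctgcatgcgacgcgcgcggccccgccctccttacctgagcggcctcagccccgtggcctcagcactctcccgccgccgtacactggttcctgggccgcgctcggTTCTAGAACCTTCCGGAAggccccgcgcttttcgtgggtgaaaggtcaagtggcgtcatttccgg
Bag3: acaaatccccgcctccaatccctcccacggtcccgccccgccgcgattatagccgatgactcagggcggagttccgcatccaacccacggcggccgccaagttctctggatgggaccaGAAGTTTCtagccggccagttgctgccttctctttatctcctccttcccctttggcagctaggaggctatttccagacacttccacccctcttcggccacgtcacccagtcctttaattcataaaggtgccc
Hspb8: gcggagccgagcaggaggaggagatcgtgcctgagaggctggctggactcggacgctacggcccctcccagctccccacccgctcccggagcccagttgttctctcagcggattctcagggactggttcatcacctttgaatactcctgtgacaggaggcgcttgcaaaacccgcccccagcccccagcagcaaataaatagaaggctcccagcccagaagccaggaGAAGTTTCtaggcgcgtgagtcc
Dnajb1: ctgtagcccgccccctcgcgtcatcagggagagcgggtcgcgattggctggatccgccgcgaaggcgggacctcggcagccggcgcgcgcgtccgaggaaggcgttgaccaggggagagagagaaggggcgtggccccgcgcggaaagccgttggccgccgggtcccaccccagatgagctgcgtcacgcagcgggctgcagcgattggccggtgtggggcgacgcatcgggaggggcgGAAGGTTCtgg
Stip1: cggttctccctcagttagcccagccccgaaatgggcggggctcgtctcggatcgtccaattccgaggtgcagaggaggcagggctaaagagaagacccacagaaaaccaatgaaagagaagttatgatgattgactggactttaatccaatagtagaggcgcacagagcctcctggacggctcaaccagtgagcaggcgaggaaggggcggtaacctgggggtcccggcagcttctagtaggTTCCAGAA
Zfand2a: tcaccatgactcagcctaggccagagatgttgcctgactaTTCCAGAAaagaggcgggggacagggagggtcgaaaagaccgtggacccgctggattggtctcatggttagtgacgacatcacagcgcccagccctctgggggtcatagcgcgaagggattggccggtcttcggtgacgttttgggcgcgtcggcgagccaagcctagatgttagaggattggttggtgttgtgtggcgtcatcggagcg
Hspa1a: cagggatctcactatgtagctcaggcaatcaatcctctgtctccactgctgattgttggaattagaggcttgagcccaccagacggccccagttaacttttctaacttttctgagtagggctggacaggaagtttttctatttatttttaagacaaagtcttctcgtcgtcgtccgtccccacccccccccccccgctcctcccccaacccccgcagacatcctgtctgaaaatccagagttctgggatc
The windows lie at chr12:10427118-10427367 (Hsph1, + strand), chr9:64084077-64084326 (Hspe1, + strand), chr1:192533210-192533459 (Bag3, + strand), chr12:45837058-45837307 (Hspb8, + strand), chr19:41431142-41431391 (Dnajb1, - strand), chr1:213657655-213657904 (Stip1, - strand), chr12:20275200-20275449 (Zfand2a, + strand) and chr20:3859506-3859755 (Hspa1a, + strand). The nearest capitals begin 8 bases before the start in Stip1, 11 in Dnajb1, 23 in Hspb8, 36 in Hsph1, 65 in Hspe1, 132 in Bag3 and 210 in Zfand2a. A window was given for 44 of the 52 genes.

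The 2-unit motif was present in 19 of the 44 member windows (43.2%) and in 4534 of all 33469 windows of this length (13.5%). The 3-unit motif was present in 4 member windows (9.09%), those of Hspa8, Hspd1, Hspe1 and Hsph1, and in 222 of all windows (0.663%). By class, the 2-unit motif was found in 3 of 3 small heat shock protein windows, 3 of 5 J-domain windows, 3 of 5 mitochondrial windows, 1 of 2 regulator windows, 3 of 8 HSP90 windows, 3 of 9 HSP70 and HSP110 windows, 1 of 4 BAG windows and 2 of 8 CCT windows. Among members tested on the first array type, 5 of 16 with a motif were called (31.2%) and 4 of 22 without (18.2%), and the median log2 fold changes were 0.30 and 0.29. Hspd1 and Hspe1 are transcribed away from each other from starts 290 bases apart, and their windows share 211 bases, so that their 3-unit matches are the same letters read on opposite strands. A match describes the letters only.

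HSP70 and HSP110 proteins were represented by 4 tested genes on the first array type, all with a positive log2 fold change and a median of 0.62, and 1 rose. Hspa1a, the stress-inducible HSP70, measured 9.42, 9.09, 9.17, 8.85 and 8.90 in corn oil replicates 1 to 5 and 10.93, 11.01, 11.60, 10.07 and 10.15 in PCN replicates 1 to 5. The PCN arrays did not overlap with corn oil, and replicates 1 to 3 stood above replicates 4 and 5. The means were 9.09 ± 0.23 in corn oil and 10.75 ± 0.64 after PCN (SD, n = 5 each), which is a rise of 3.18-fold (log2 fold change 1.67 ± 0.26 SE, 95% interval 1.10 to 2.23, limma adjusted p = 0.00536). Its near-identical neighbour Hspa1b has no probe set of its own, so signal from that gene in the Hspa1a probe set cannot be told apart.

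Hsph1, the HSP110 that releases nucleotide from HSP70, measured 11.38, 10.48, 11.06, 10.61 and 10.79 in corn oil and 11.73, 11.56, 11.84, 11.36 and 11.18 after PCN. Corn oil replicate 1 lay within the PCN range, and the difference of 0.67 ± 0.18 (SE) was not called (limma adjusted p = 0.0619). Hspa4, a second HSP110-family protein, differed by 0.25 (95% interval -0.02 to 0.52, adjusted p = 0.333), and Hspa13, a membrane-associated HSP70 relative, by 0.57 (0.16 to 0.98, adjusted p = 0.128). Both overlapped between groups. The log2 level of Hsph1 minus that of Hspa4, taken within each array, was 0.42 higher after PCN (95% interval -0.03 to 0.87, exact two-sided permutation p = 0.0397, 0.0893 after adjustment over 9 gene pairs).

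Among the 4 small heat shock proteins Hspb8 rose and the other 3 were not called. Hspb8, which works with Bag3 in sending misfolded proteins to autophagy, measured 10.35, 9.87, 9.81, 9.85 and 10.20 in corn oil and 10.79, 10.86, 10.94, 10.75 and 10.57 after PCN. The groups were apart, with a 1.70-fold rise (log2 fold change 0.77 ± 0.12 SE, 95% interval 0.49 to 1.04, limma adjusted p = 0.00708). A dimmer Hspb8 probe set went from 9.46 to 10.70 (log2 fold change 1.24, adjusted p = 0.0859).

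Hspb1, known as HSP27 and a guard of the actin skeleton, measured 8.58, 8.68, 9.02, 8.84 and 8.65 in corn oil and 10.01, 10.80, 11.40, 9.03 and 9.31 after PCN. The groups touched without overlap, PCN replicate 4 at 9.03 against corn oil replicate 3 at 9.02, and the PCN arrays were widely spread (SD 0.99 against 0.18). The log2 fold change of 1.36 ± 0.37 (SE; 95% interval 0.54 to 2.17) was not called (limma adjusted p = 0.0736). With single arrays left out it ran from 1.03 (without PCN replicate 3) to 1.63 (without PCN replicate 4, adjusted p = 0.0399), and Hspb1 was not called in the other 9 of these 10 fits (adjusted p up to 0.143). Cryab, the αB-crystallin of muscle and lens, differed by 0.02 (adjusted p = 0.943) and Hspb6 by -0.05 (adjusted p = 0.813).

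Of HSP90 and its 8 co-chaperones tested, 3 rose, all co-chaperones, and the median log2 fold change was 0.26. Hsp90ab1, the constitutive HSP90 itself, measured 13.53, 12.71, 13.31, 13.33 and 13.33 in corn oil and 13.53, 13.65, 13.46, 13.41 and 13.45 after PCN. Apart from corn oil replicate 2 the arrays lay close together, and the difference was 0.26 (95% interval -0.01 to 0.53, limma adjusted p = 0.311), or 0.13 without that array (adjusted p = 0.335).

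Chordc1, a co-chaperone of HSP90, measured 10.54, 9.97, 10.14, 10.05 and 10.01 in corn oil and 10.99, 10.97, 10.84, 10.67 and 10.56 after PCN. Every PCN array was higher than every corn oil array, though corn oil replicate 1 at 10.54 came near PCN replicate 5 at 10.56. It rose 1.58-fold (log2 fold change 0.66 ± 0.13 SE, limma adjusted p = 0.0182). The adjusted p of Chordc1 rose to 0.0561 with corn oil replicate 4 left out and to 0.055 with PCN replicate 1 left out. Ptges3, the p23 protein that closes the HSP90 clamp on its client, measured 12.60, 12.33, 12.37, 12.35 and 12.44 in corn oil and 12.75, 12.90, 12.86, 12.72 and 12.75 after PCN. The groups were apart and both narrow, and Ptges3 rose 1.30-fold (log2 fold change 0.38 ± 0.07 SE, limma adjusted p = 0.0161). The adjusted p of Ptges3 was 0.0527 with corn oil replicate 4 left out and 0.106 after centring on the probe sets shared by both array types.

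Stip1, the adaptor that hands clients from HSP70 to HSP90, measured 10.94, 10.31, 10.64, 10.55 and 10.54 in corn oil and 11.23, 11.18, 11.18, 11.06 and 10.85 after PCN. It was the only called member of the first array type whose groups overlapped. It rose 1.42-fold (log2 fold change 0.50 ± 0.12 SE, limma adjusted p = 0.0439). Centring on the shared probe sets gave Stip1 an adjusted p of 0.098. The call held without corn oil replicate 1 (0.0185) or PCN replicate 5 (0.0383) and was lost without any of the other 8 arrays: 0.06 without corn oil replicate 2, 0.0804 without replicate 3, 0.106 without replicate 4 and 0.0939 without replicate 5, and 0.115, 0.066, 0.1 and 0.0877 without PCN replicates 1 to 4 of Stip1. Ahsa1, which speeds the HSP90 ATPase, differed by 0.42 (95% interval 0.16 to 0.68, adjusted p = 0.0809). The kinase-specific Cdc37 differed by 0.0036 (adjusted p = 0.987), and the steroid receptor partner Fkbp4 by -0.00079 (95% interval -0.42 to 0.42, adjusted p = 0.999). The HSP70 partners St13 (0.18, adjusted p = 0.314) and Stub1 (0.20, adjusted p = 0.309), a ubiquitin ligase, were not called.

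All 6 J-domain proteins tested had a positive log2 fold change and an unadjusted p below 0.05, with a median of 0.42, and 2 rose, Dnajb1 and Dnaja2. Dnajb1, the HSP40 that pairs with inducible HSP70, measured 10.13, 10.11, 9.91, 9.75 and 9.95 in corn oil and 10.74, 10.59, 10.87, 10.44 and 10.43 after PCN. The groups did not overlap, with the nearest arrays at 10.13 and 10.43. It rose 1.56-fold (log2 fold change 0.64 ± 0.11 SE, limma adjusted p = 0.0119). Its dimmer probe set went from 9.80 to 10.53, with the groups apart, and was not called (log2 fold change 0.74, adjusted p = 0.0543).

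Dnaja2 measured 11.11, 10.71, 10.99, 10.85 and 10.96 in corn oil and 11.42, 11.15, 11.44, 11.34 and 11.26 after PCN. The groups did not overlap and the rise was 1.32-fold (log2 fold change 0.40 ± 0.10 SE, limma adjusted p = 0.0474). Centring on the shared probe sets gave Dnaja2 an adjusted p of 0.098. The call held without corn oil replicate 1 (0.0409) or PCN replicate 2 (0.0345) and was lost without any of the other 8 arrays, at 0.0651, 0.0794, 0.119 and 0.0877 without corn oil replicates 2 to 5 and at 0.123, 0.109, 0.0996 and 0.076 without PCN replicates 1, 3, 4 and 5 of Dnaja2. Dnajb4 (0.73, adjusted p = 0.053), Dnajb2 (0.43, adjusted p = 0.0725), Dnaja1 (0.33, adjusted p = 0.0868) and Dnaja4 (0.41, adjusted p = 0.169) were not called. A dimmer Dnaja4 probe set went from 7.70 to 8.24 and was called (adjusted p = 0.0443). Within arrays, the log2 level of Dnajb1 minus that of Dnaja1 was 0.31 higher after PCN (95% interval 0.07 to 0.55, exact permutation p = 0.0317, adjusted p = 0.0893).

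The BAG family differed among its members. Bag3, the stress-inducible member that joins HSP70 to small heat shock proteins, measured 10.07, 9.97, 9.84, 10.18 and 9.89 in corn oil and 11.16, 10.84, 11.69, 10.86 and 10.87 after PCN. The highest corn oil array, 10.18, stood well below the lowest PCN array, 10.84. Bag3 rose 2.13-fold (log2 fold change 1.09 ± 0.16 SE, 95% interval 0.75 to 1.44, limma adjusted p = 0.00393). Bag1, a nucleotide release factor that also binds the proteasome, averaged 9.81 ± 0.15 in corn oil and 9.90 ± 0.15 after PCN (SD, n = 5 each). Its groups overlapped (difference 0.08, 95% interval -0.15 to 0.31, adjusted p = 0.73). The log2 level of Bag3 minus that of Bag1 was 1.01 higher after PCN (95% interval 0.54 to 1.49, exact permutation p = 0.00794, the smallest that 252 regroupings give, adjusted p = 0.0357). Without corn oil replicate 1, 3, 4 or 5 the adjusted p was 0.0714, with differences from 0.98 to 1.10. The groups of this difference did not overlap, so they stay apart whichever array is left out. An exact p over so few regroupings moves in coarse steps. This pair was fixed with earlier results of these data known and uses the same Bag3 values, so its p is no separate evidence for the Bag3 rise. Bag2 differed by -0.14 (adjusted p = 0.512) and Bag5 by 0.09 (adjusted p = 0.695).

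**Figure D2:**
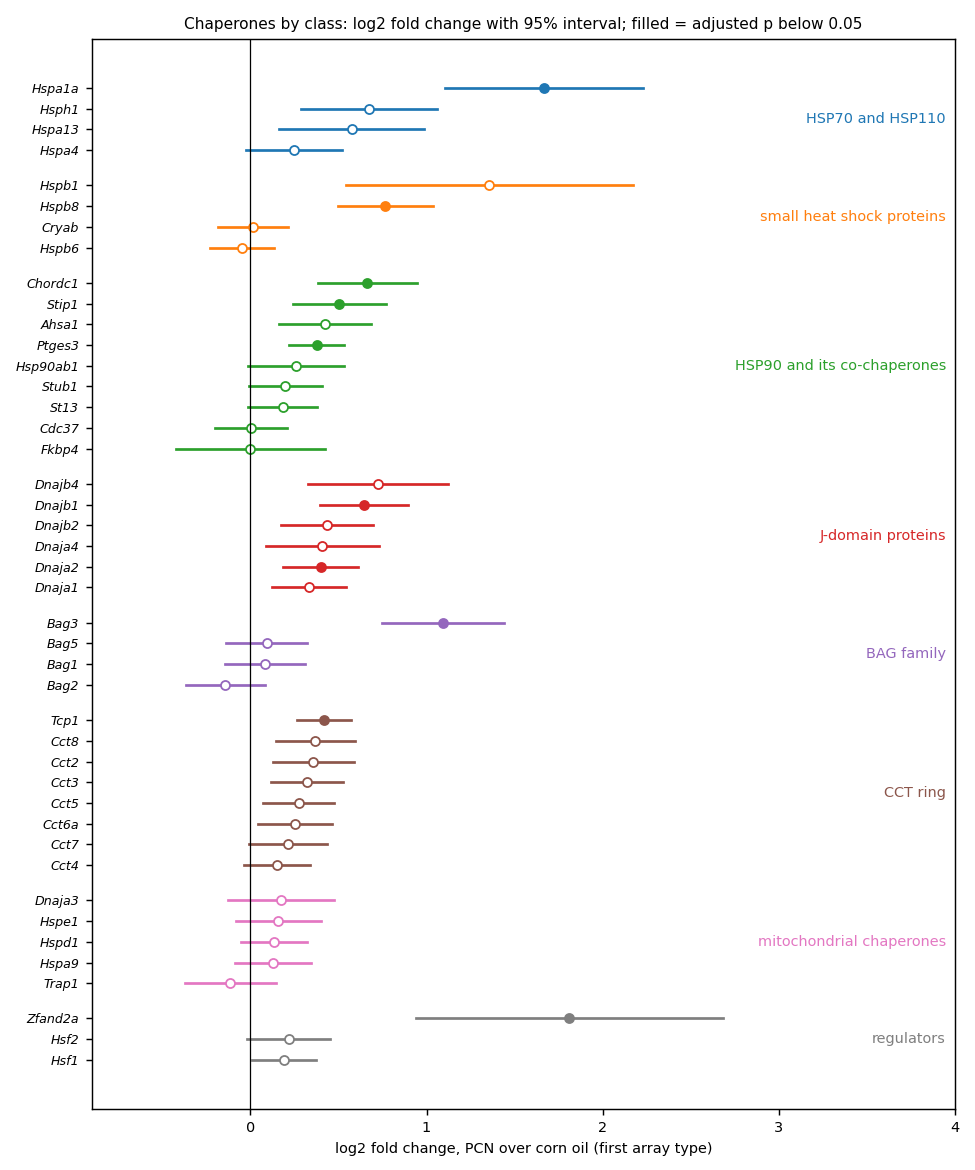
Log2 fold change of PCN over corn oil for the 43 chaperones tested on the first array type, grouped by class; bars are 95% intervals from limma, and filled points have an adjusted p below 0.05. Filled points stand in every class but the mitochondrial one, and the 4 points below 0 are Hspb6, Fkbp4, Bag2 and Trap1, all open.

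All 8 subunits of the CCT ring had a positive log2 fold change on the first array type, from 0.15 to 0.42 with a median of 0.30, and 6 had an unadjusted p below 0.05, but 1 alone was called. Tcp1, the α subunit, measured 11.78, 11.69, 11.79, 11.72 and 11.72 in corn oil and 12.16, 12.23, 12.27, 12.08 and 12.04 after PCN. Corn oil arrays were nearly level (SD 0.04) and all PCN arrays lay above them. The rise was 1.33-fold (log2 fold change 0.42 ± 0.07 SE, 95% interval 0.26 to 0.57, limma adjusted p = 0.00903). Tcp1 lost its call when arrays were centred on those shared probe sets, 100 in number (adjusted p = 0.0624).

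In Cct3, Cct5 and Cct8 the PCN arrays also lay above all corn oil arrays without a call. Cct3 ran from 10.91 to 11.28 in corn oil and from 11.34 to 11.59 after PCN (log2 fold change 0.32, limma adjusted p = 0.0896). Cct5 ran from 11.52 to 11.92 and from 11.98 to 12.08 (0.28, adjusted p = 0.138). Cct8 ran from 6.92 to 7.37 and from 7.48 to 7.73 (0.37, adjusted p = 0.0754). For Cct2 (0.36, adjusted p = 0.0956), Cct6a (0.25, adjusted p = 0.195), Cct7 (0.21, adjusted p = 0.301) and Cct4 (0.15, adjusted p = 0.407) the groups overlapped.

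None of the 5 mitochondrial chaperones was called by limma, and none had an unadjusted p below 0.05. Their log2 fold changes ran from -0.11 to 0.18, with a median of 0.13. Hspd1, the HSP60 ring that folds matrix proteins, measured 13.50, 13.21, 13.48, 13.33 and 13.29 in corn oil and 13.48, 13.73, 13.57, 13.37 and 13.32 after PCN. Hspe1, its lid, measured 13.19, 12.89, 13.22, 12.75 and 12.80 in corn oil and 13.16, 13.09, 13.40, 12.99 and 13.01 after PCN. Groups overlapped for both, with differences of 0.13 (95% interval -0.05 to 0.32) and 0.16 (-0.08 to 0.40). Hspa9, the mitochondrial HSP70, differed by 0.13 (adjusted p = 0.545), its J-domain partner Dnaja3 by 0.18 (adjusted p = 0.555) and Trap1 by -0.11 (95% interval -0.37 to 0.14, adjusted p = 0.66).

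Set within arrays against the cytosolic ring subunit Tcp1, the log2 level of Hspd1 was 0.28 lower after PCN (95% interval of the difference -0.41 to -0.15, exact permutation p = 0.00794, adjusted p = 0.0357). The groups did not overlap in this difference. Tcp1 had the largest log2 fold change of the CCT subunits (0.42, class median 0.30), and the pairs were fixed with earlier results of these data known. Hspd1 was not set against the other subunits, so the difference holds for Tcp1 and not for the ring as a whole. Without corn oil replicate 1, 3, 4 or 5 the adjusted p was 0.0714, and the difference lay between -0.32 and -0.26 whichever array was left out. As for Bag3 and Bag1, the groups stay apart in these fits and the exact p moves in coarse steps. Hspd1 against Hspe1 (-0.02, 95% interval -0.25 to 0.20, adjusted p = 0.865), Trap1 against Hsp90ab1 (-0.37, -0.90 to 0.15, adjusted p = 0.257) and Dnaja3 against Dnaja1 (-0.16, -0.52 to 0.20, adjusted p = 0.439) did not pass the threshold. Without corn oil replicate 2 the difference of Trap1 and Hsp90ab1 was -0.17. Neither did Hspb8 against Hspb1 (-0.59, -1.59 to 0.41, adjusted p = 0.357).

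The 3 regulators behaved unequally. Zfand2a, a proteasome-associated zinc finger protein first known from arsenite exposure, measured 7.77, 7.49, 7.95, 7.70 and 7.90 in corn oil and 10.86, 8.90, 10.58, 9.04 and 8.48 after PCN. All PCN arrays exceeded corn oil, with replicates 1 and 3 far above the rest. The means were 7.76 ± 0.18 in corn oil and 9.57 ± 1.07 after PCN (SD, n = 5 each), which is a rise of 3.51-fold (log2 fold change 1.81 ± 0.40 SE, 95% interval 0.94 to 2.68, limma adjusted p = 0.0311). The call held without corn oil replicate 2 (0.0495), PCN replicate 2 (0.0308) or PCN replicate 5 (0.0156) and was lost without any of the other 7 arrays, at 0.0544, 0.0639, 0.0834 and 0.0602 without corn oil replicates 1, 3, 4 and 5 and at 0.0568, 0.0705 and 0.0518 without PCN replicates 1, 3 and 4 of Zfand2a. Hsf1, the main heat shock factor, measured 7.76, 7.73, 7.85, 7.79 and 7.52 in corn oil and 7.99, 7.87, 8.00, 7.98 and 7.76 after PCN. Its groups overlapped (0.19, adjusted p = 0.26), as did those of Hsf2 (0.22, adjusted p = 0.326), and the difference between both factors was -0.03 (95% interval -0.33 to 0.28, exact permutation p = 0.865).

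The arrays differed among themselves within both groups. Averaged over all 43 tested members, the log2 deviation from the corn oil mean was 0.47, 0.37, 0.56, 0.33 and 0.25 in PCN replicates 1 to 5, and 0.17, -0.08, 0.06, -0.08 and -0.07 in corn oil replicates 1 to 5. Over all probe sets tested it stayed between -0.03 and 0.08. The means of the CCT subunits were 0.32, 0.28, 0.39, 0.25 and 0.24 in PCN replicates 1 to 5. Those of the regulators were spread more widely, 1.24, 0.45, 1.11, 0.57 and 0.33. Among the regulators, Zfand2a had an SD of 1.07 across the PCN arrays, against 0.10 for Hsf1 and 0.10 for Hsf2. For the HSP90 class and the mitochondrial class the groups overlapped. The mitochondrial means were 0.07, 0.06, 0.15, 0.07 and 0.13 after PCN and 0.15, -0.15, 0.09, 0.02 and -0.10 in corn oil.

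**Figure D3:**
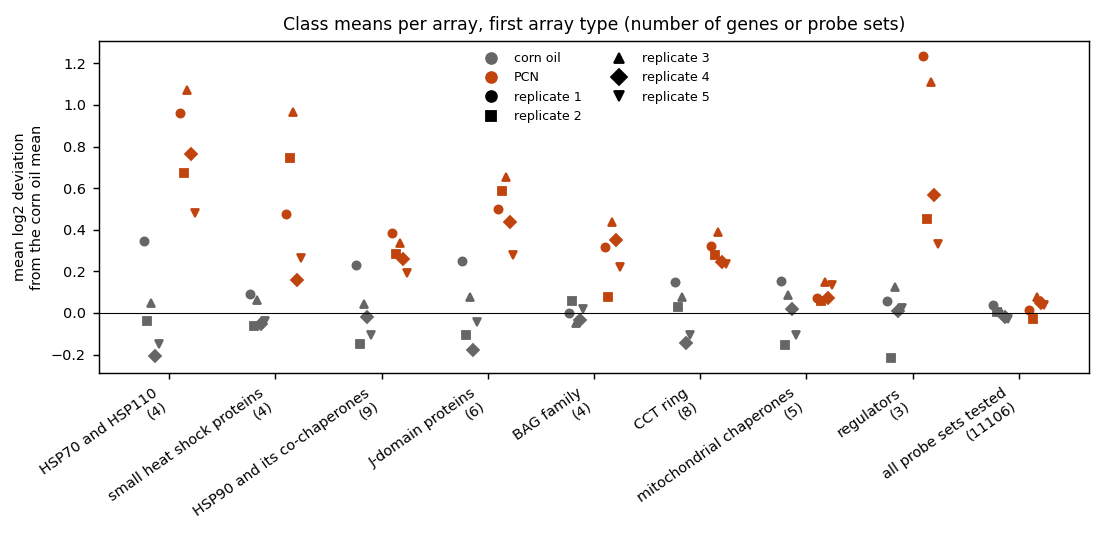
Mean log2 deviation from the corn oil mean for each chaperone class on each array of the first type, with the number of genes in brackets and all probe sets tested at the right; grey markers are corn oil, orange markers PCN, and the marker shape is the replicate number. PCN replicates 1 and 3 are the highest for the HSP70 class (0.96 and 1.07) and the regulators (1.24 and 1.11), and all probe sets together stay between -0.03 and 0.08.

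On the second array type 3 of the 12 members tested rose (25%), against 5.33% of the 4688 genes tested there, and 0 fell by limma, against 1.19% of all genes. None of the genes called on the first array type was measured on the second, so those calls were not checked there. The 3 that rose, Hsph1, Cct8 and Hsf2, were not called on the first (limma adjusted p = 0.0619, 0.0754 and 0.326), and 0 genes were called on both. An unadjusted p below 0.05 was found for 7 members, 0 of them lower, and for 28.9% of all genes. The median log2 fold change was 0.21 over members and -0.0015 over all genes. Dnaja4 passed the brightness limit only through the PCN arrays, and without it 3 of 11 members rose, 6 had an unadjusted p below 0.05 and the median was 0.20. In 2 members the PCN arrays lay above all corn oil arrays, a separation that 7.34% of all genes showed, and in 0 members below them, as in 3.82% of all genes. These results changed with the scaling of the arrays: 0 members were called after quantile normalization or cyclic loess, or in an unmoderated test. Centring on the 100 shared probe sets turned the members' median to -0.07 and that over every probe set to -0.31. Leaving out corn oil replicate 1, 4 or 5 or PCN replicate 1, 2 or 3 gave 0 calls, leaving out corn oil replicate 3 or PCN replicate 4 gave 1, and leaving out PCN replicate 5 gave 4. Bright probe sets were shifted upwards there, with a median log2 fold change of 0.20 among the brightest 10%, which held 5 of the 12 members. On the first array type that median was -0.0090, with 16 of 43 members in it. The part of brightness in the members' values was not tested.

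Hsph1 on the second array type measured 9.55, 9.33, 8.89 and 9.32 in corn oil and 10.45, 10.37, 10.39, 9.96 and 9.46 after PCN. PCN replicate 5 lay within the corn oil range. The rise was 1.80-fold (log2 fold change 0.85 ± 0.20 SE, 95% interval 0.41 to 1.29, limma adjusted p = 0.0351), beside 0.67 on the first array type, where it was 0.58 over the 9 animals measured on both, without corn oil replicate 2. The call for Hsph1 held only without PCN replicate 5 (0.00467); without each other array the adjusted p lay between 0.0568 and 0.11. Cct8 measured 9.56, 9.98, 9.62 and 9.50 in corn oil and 10.48, 10.43, 10.37, 9.98 and 9.97 after PCN. PCN replicates 4 and 5 did not exceed the highest corn oil array. PCN replicate 4 and corn oil replicate 3 hold the identical value, 9.98, which is also the Cct8 median over all arrays of this type. Whether the processing set this value is not given in the sources used here. The rise was 1.49-fold (log2 fold change 0.58 ± 0.14 SE, adjusted p = 0.0393). The Cct8 call held without corn oil replicate 3, PCN replicate 4 or PCN replicate 5, and the adjusted p was 0.0802 to 0.11 without each of the others.

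Hsf2, the second heat shock factor, measured 8.27, 8.48, 8.58 and 8.18 in corn oil and 9.19, 9.09, 8.80, 8.68 and 8.64 after PCN on the second array type. The groups did not overlap, and its brightest probe set rose 1.42-fold (log2 fold change 0.50 ± 0.13 SE, limma adjusted p = 0.0496). The 2 dimmer Hsf2 probe sets of this array type differed by 0.11 (adjusted p = 0.363) and 0.10 (adjusted p = 0.348). The call for Hsf2 held only without PCN replicate 5 (0.0248), with 0.0595 to 0.131 otherwise. Cct5 measured 10.39, 10.73, 10.45 and 10.69 in corn oil and 11.21, 11.16, 11.05, 10.94 and 10.73 after PCN, groups that were barely apart (0.45, 95% interval 0.19 to 0.71, adjusted p = 0.0506). A dimmer Cct5 probe set differed by -0.09 (adjusted p = 0.415).

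The other 8 members tested on the second array type were not called, with log2 fold changes from -0.04 (Dnajb2) to 0.47 (Dnaja4). Dnaja4 measured 5.37, 5.43, 5.06 and 5.41 in corn oil and 6.30, 5.93, 5.97, 5.29 and 5.43 after PCN, and it passed the brightness limit of 5.51 only through the PCN arrays (adjusted p = 0.124). Cdc37 differed by 0.22 (adjusted p = 0.157), against 0.0036 on the first array type, where the same probe set read it. Over the 100 probe sets shared by both types, the mean difference was 0.28 on the second and 0.08 on the first. The part of this shift in the members' values was not tested. Dnajb6, a J-domain protein that holds back aggregates, differed by 0.20 (adjusted p = 0.17). Hspa14, of the ribosome-bound HSP70 complex, differed by 0.10 (adjusted p = 0.665), Bag4 by 0.06 (adjusted p = 0.725) and Hspa4l by -0.03 (adjusted p = 0.821). Cct7 read exactly 8.06 on 6 of 9 arrays. In every member with tied arrays on this type, the tied value was the median over its arrays. Such ties occurred in 51.4% of probe sets on the second array type and in 0.433% on the first.

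**Figure D4:**
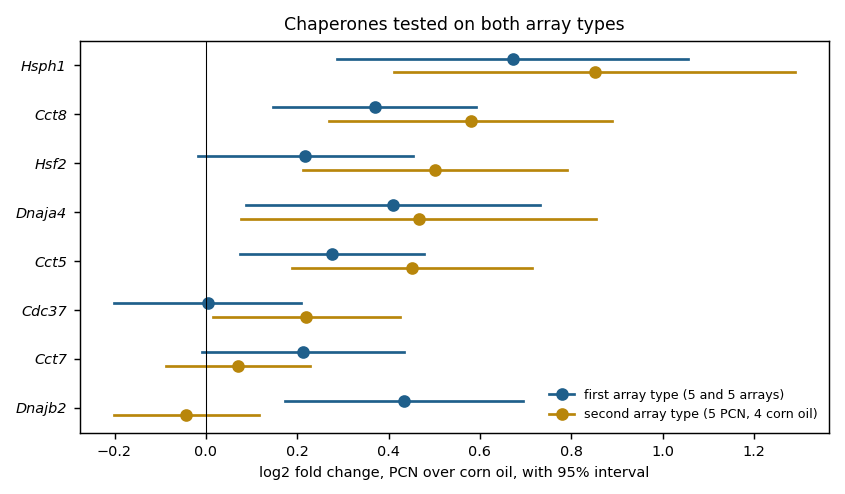
Log2 fold change of PCN over corn oil with the 95% interval from limma for the 8 chaperones tested on both array types; blue is the first array type and gold the second. The whole interval lies above 0 on both for Hsph1 (0.67 and 0.85), Cct8 (0.37 and 0.58), Cct5 (0.28 and 0.45) and Dnaja4 (0.41 and 0.47). The points of Hsf2, Cct7 and Cdc37 also lie above 0 on both, with intervals that reach below 0 on the first. Dnajb2 lies at 0.43 on the first and -0.04 on the second. The 9 animals of the second type were also measured on the first, so the types are not independent of each other. Dnaja4 passed the brightness limit of the second only through the PCN arrays.

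Other genes of protein folding and repair were counted beside the members. Of 21 further cytosolic co-chaperones tested on the first array type, among them the prefoldin subunits that feed actin and tubulin to CCT, 0 were called by limma, 4 had an unadjusted p below 0.05, and the median log2 fold change was 0.15. On the second array type 1 of 8 fell, Dnajc2, a ribosome-associated J-domain protein (-0.30, adjusted p = 0.0273), which on the first differed by 0.19 (adjusted p = 0.290). Of 8 mitochondrial proteases and import factors on the first array type, 0 were called, 0 had an unadjusted p below 0.05, and the median was -0.04. Clpx, the unfoldase of the matrix protease, had the lowest value, -0.32 (adjusted p = 0.400).

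Of 8 other genes that heat shock factor 1 can induce, tested on the first array type, 2 rose (25%) and 0 fell. Of all genes tested there, 2.30% rose and 0.979% fell. The list had a median log2 fold change of 0.33. Whether heat shock factor 1 raised these genes was not tested. Sqstm1, an autophagy receptor for ubiquitinated protein, went from 12.68 ± 0.15 to 13.47 ± 0.17 (SD, n = 5 each; log2 fold change 0.80, limma adjusted p = 0.00127), and Gadd45b rose by 2.92 on the log2 scale (adjusted p = 0.000375). Hmox1, the heme-degrading enzyme, differed by 0.82 (adjusted p = 0.0618), and Serpinh1, the collagen chaperone, by 0.01 (adjusted p = 0.973).

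The chaperones of the endoplasmic reticulum answer to another stress pathway. All 15 tested had a positive log2 fold change, with a median of 0.39, 10 had an unadjusted p below 0.05, and 2 rose (13.3%). Over all genes tested on the first array type, 49.6% had a positive log2 fold change and 2.30% rose. Dnajb9, a J-domain partner of the luminal HSP70, rose by 0.92 (limma adjusted p = 0.00253), and P4hb, a disulfide isomerase, by 0.25 (adjusted p = 0.0448). Hspa5, the luminal HSP70 itself, differed by 0.39 (adjusted p = 0.157). The difference between these lists and the members was not tested.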

How the data were processed

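Adult rat liver RNA was measured on 2 Affymetrix array types, 10 and 9 arrays. The deposited values are log2 expression per probe set, processed by the authors before deposit. MAS5 is named, without a version, in the submitters' processing notes; background correction, summarization and normalization are not given in the sources used here. The base of the logarithm was inferred from the range of the values. The plan had assumed linear signals, and the planned transformation became an alternative.

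Gene names came from the platform annotation, updated by gene identifier to RefSeq (12754 of 12789 and 7530 of 7570 single-gene probe sets matched). Of the members' annotated probe sets, 70 named a member alone and 7 that named another gene as well were left out. The 57 control probe sets of each type and probe sets whose mean lay below the 30th percentile (6.67 and 5.51) were left out, which left 11106 and 10693. PCN was compared with corn oil within each array type by limma 3.58.1 in R 4.3.3, treatment alone, with moderated variances and an intensity trend, two-sided. For each gene the brightest probe set was used. Within-array gene pairs were compared by an exact two-sided permutation test over 252 regroupings, with Benjamini-Hochberg adjustment over 9 pairs (4 of 13 listed pairs lacked a tested gene). The procedure was tested on simulated data.

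Members, lists and gene pairs were chosen with earlier results of these data known. All tested members were described, with per-array values for those called and for the class leaders. Alternatives were other scalings, filters, variance models, array weights, the replicate block, the mean over probe sets and leaving out each array. Same-numbered replicates did not pair: correlations of their deviations ran from -0.301 to 0.284 on the first type and from 0.0202 to 0.201 on the second. Arrays have no depth, and their number limits the precision.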

Additional observations from a re-analysis of the deposited data

Results flagged for a closer look

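In 7 of the 110 groups of 4 or 5 arrays that were examined, 1 array lay apart from the rest of its group by Dixon's criterion, where chance alone gives 5.5. Of these, 3 fell on replicate 2 of the corn oil group, first array type. It read 12.71 for Hsp90ab1 (13.31 to 13.53 in the other corn oil arrays), 11.19 for St13 (11.50 to 11.58) and 8.05 for Hsf2 (8.46 to 8.58). Cdc37 was low in PCN replicate 2 of the first array type, at 11.11 against 11.36 to 11.46. On the second array type Dnajb2 read 6.81 in PCN replicate 1 with the others at 6.74. There, Cct7 read 8.15 in PCN replicate 1 and 7.85 in corn oil replicate 5, with the others of each group at 8.06. These 3 values on the second array type stand beside tied values (Cct7 is identical on 6 of 9 arrays and Dnajb2 on 3), which fix the outcome of the criterion, so they are no measure of outlying arrays and the count of 7 is not to be read against 5.5.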

How the results depend on the processing

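The number of arrays, the unstated normalization and, on the second array type, the tied values limit these results. Calls on the first array type numbered 10 as deposited, 6 after centring on the probe sets shared by both types, 5 in an unmoderated test, 22 with array weights and 5 to 13 when an array was left out, and 8 to 11 under the other settings. No member was lower under any of them there. Centring also moved the median of all probe sets by -0.08, and the share of higher probe sets among those called went from 70.9% to 45.9% (57.9% after quantile normalization). On the second array type 3 calls became 0 after quantile normalization, cyclic loess, an unmoderated test or a replicate block, 5 with array weights, and 0 to 4 when an array was left out. Centring on shared probe sets there gave 2 lower members, Dnajb2 and Hspa4l, a median over members of -0.068, against 0.21 as deposited and 0.13 after quantile normalization, and a higher share of 3.23% among called probe sets, against 69.7%; with a common median it was 87.8%. With arrays left out the median was 0.27 to 0.34 on the first type and 0.17 to 0.24 on the second. The pair Trap1 and Hsp90ab1 differed by -0.46 after quantile normalization (exact permutation, adjusted p = 0.0238) and by -0.44 to -0.17 when an array was left out, where none of 10 passed (lowest adjusted p = 0.157). Dnajb1 and Dnaja1 differed by 0.30 with probe sets averaged (adjusted p = 0.0476), and by 0.25 to 0.39 when an array was left out (adjusted p from 0.0357, without corn oil replicate 2, to 0.167). Bag3 and Bag1 differed by 0.84 to 1.11 and Hspd1 and Tcp1 by -0.32 to -0.26 when an array was left out. The replicate block left 8 calls on the first array type. The cause of these changes was not tested.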
